A study of Caenorhabditis elegans with 6 samples.

Results

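The Hedgehog-related and patched-related genes of *C. elegans* were described in dauer larvae with and without *daf-16*, the gene for the FOXO transcription factor of the insulin pathway. Members were chosen by name alone: every protein-coding gene called *wrt* (warthog), *grd* (groundhog), *grl* (ground-like), *ptr* (patched-related) or *ptc* (patched) with a number, plus *qua-1* (quahog) and *hog-1*. This gave 85 of 20191 protein-coding genes, of 46904 genes in all. They were 31 *grl*, 16 *grd*, 10 *wrt*, 23 *ptr* and 3 *ptc* genes with *qua-1* and *hog-1*, and 2 further genes with such a name, *grd-17* and *grl-32*, were left out as pseudogenes.

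Both groups carried *daf-7(e1372)*, a temperature-sensitive dauer-constitutive allele, so that animals formed dauers on food. The control genotype was *daf-7(e1372)* alone, and the *daf-16(0)* genotype was *daf-16(mgDf50); daf-7(e1372)*, a null allele in the same background. Embryos isolated with hypochlorite grew for 52 h at 24°C. Only dauers, selected by hand, went into the samples of both genotypes. Messenger RNA of pelleted whole worms was sequenced as 3 libraries per genotype, of which 2 per genotype enter the comparison that the labels describe. The methods speak of 2 biological replicates per strain, and whether the third library of each genotype came from another culture was not stated, so p-values measure the spread between these libraries. The methods also describe a search for outlier samples by read quality and principal component analysis. Whether that search set the libraries of the comparison was not stated.

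Hedgehog is a secreted signal in flies and vertebrates that is cut by its own Hog module, joined to a lipid and received by Patched, a membrane protein with a sterol-sensing domain. *C. elegans* lacks a true Hedgehog and Smoothened, but it has large families of secreted proteins that pair a warthog, groundhog or ground-like domain with or without a Hog module, and many relatives of Patched. Many of these genes are transcribed in the epidermis and in the glia and duct cells that line openings of the cuticle, many cycle with the molts, and loss of several disturbs molting or the apical extracellular matrix. No promoter or protein sequence of these genes is shown here.

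The protein-coding counts summed to between 8103784 and 17808542 per library. Levels are given as CPM, counts scaled to the library total with TMM factors over the 6 libraries, on which 3 counts corresponded to 0.154 to 0.418 CPM, and the order of values is always replicates 1, 2 and 3. *daf-16* itself measured 40.6, 63.3 and 43.3 CPM in *daf-16(0)* and 393, 353 and 197 CPM in control, with a log2 fold change of -2.80 ± 0.35 (adjusted p = 0.00785) by edgeR in the 4 libraries described next. The main comparison holds *daf-16(0)* replicates 2 and 3 against control replicates 1 and 2, the libraries of the authors' own comparison. It was tested with edgeR's quasi-likelihood test, a gene was called at an adjusted p of at most 0.05 over all protein-coding genes tested, and all 6 libraries are given beside it. Each log2 fold change (positive when *daf-16(0)* was higher) is given ± a standard error derived from the test (n = 2 libraries per genotype, or 3 with all 6). It is the absolute log2 fold change over the square root of the quasi-likelihood F statistic. In a principal component analysis control replicate 3 stood apart, at 137 on the second component against -67.6 to 12.8 for the other libraries. The 5 adult-stage genes examined (*vit-2*, *vit-5*, *vit-6*, *col-7* and *col-19*) summed to 17205 CPM in control replicate 3, as against 266 and 93.8 in the other controls and 10836 to 21947 in *daf-16(0)*. All 5 were called higher in the 4 libraries and 1 in all 6. The sum of control replicate 3 came mostly from the yolk genes *vit-2*, *vit-5* and *vit-6*, at 6490, 4698 and 5994 CPM. The 2 collagens stayed below every *daf-16(0)* library there. *col-19* measured 463, 355 and 182 CPM in *daf-16(0)* and 1.53, 1.93 and 15.1 in control, and *col-7* 152, 28.7 and 51.3 against 0.418, 0 and 7.42. The 3 dauer cuticle genes *col-2*, *col-40* and *cut-1* were all called lower in the 4 libraries (1 in all 6), with sums of 19.4, 1171 and 1811 CPM in *daf-16(0)* and 31523, 42541 and 11026 CPM in control. *daf-16(0)* replicate 1 was thus the lowest of 6 in the dauer genes. How far the stage of these libraries bears on the values below was not tested.

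Of 9 hypodermis and seam markers, 8 were tested, *nhr-73* was at 0 in every library, and the sums were 447 to 505 CPM in *daf-16(0)* and 500.4 to 799 in control. edgeR called *dpy-7* higher in both comparisons and *elt-1* lower in the 4 libraries (adjusted p = 0.0485) but not in all 6 (adjusted p = 0.0875), and DESeq2 called 1 higher and 3 lower in each. In the 4 libraries, none of 5 tested glia and duct markers of 6 was called by edgeR, with sums of 46.8 to 125 CPM against 71.3 to 181 (1 higher and 2 lower at an unadjusted p under 0.05, 1 and 1 called by DESeq2). None of 3 body muscle markers (0 at an unadjusted p under 0.05, 2 lower by DESeq2) or 5 germ line markers (2 higher at an unadjusted p under 0.05, 2 higher by DESeq2) was called by edgeR there. The muscle sums were 4038 to 11456 CPM in *daf-16(0)* and 5686 to 22702 in control, and those of the germ line 289 to 858 and 105 to 507. The 5 neuronal markers summed to 403 to 595 CPM in *daf-16(0)* and 833 to 1249 in control, without overlap. Of these, 4 were lower at an unadjusted p under 0.05 in both comparisons, edgeR called *snt-1* lower in the 4 libraries and *snt-1* and *snb-1* in all 6, and DESeq2 called 4 lower in each. The 5 intestinal markers summed to 1208 to 1908 CPM against 469.7 to 691, and edgeR called *pho-1* and *act-5* higher in the 4 libraries and *pho-1* in all 6, with 3 called higher by DESeq2 in each. Over all protein-coding genes tested, edgeR called 5.37% higher and 9.59% lower in the 4 libraries, and 5.08% and 7.39% in all 6. No share over all genes was computed for DESeq2 or for an unadjusted p under 0.05. In whole worms, fewer cells of a type and less RNA per cell cannot be told apart, and the part of cell makeup in the results was not tested.

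Hedgehog-related transcripts were more abundant in control than in *daf-16(0)* dauer larvae, mainly through a few *grl* genes. The 85 members summed to 4088, 4512 and 4952 CPM in *daf-16(0)* and to 26748, 31665 and 9567 CPM in control. The groups did not overlap, and control replicate 3 lay nearest to *daf-16(0)*. *grl-20*, *grl-23* and *grl-25* together made up 66.2, 66.9 and 50.5% of the member CPM in control but 0.209, 7.67 and 13.5% in *daf-16(0)*. Without these 3 genes the sums were 4080, 4166 and 4285 CPM in *daf-16(0)* and 9028, 10467 and 4738 CPM in control, still without overlap. The families differed in direction. The *grl* sums were 981, 1502 and 1614 CPM in *daf-16(0)* against 18845, 22576 and 5519.6 in control, and the *grd* sums 347, 673 and 748 against 2436, 3946 and 2259. The *wrt* sums ran the other way, at 756, 571 and 479.8 CPM in *daf-16(0)* against 297, 465 and 179 in control. The *ptr* sums were 1048, 1173 and 1222 against 3015, 3251 and 1107, and those of *ptc* 589, 399 and 625 against 2031, 1335 and 473. For both membrane families control replicate 3 fell within the *daf-16(0)* values, whereas the *grl*, *grd* and *wrt* sums were apart in all 6 libraries.

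**Figure D1:**
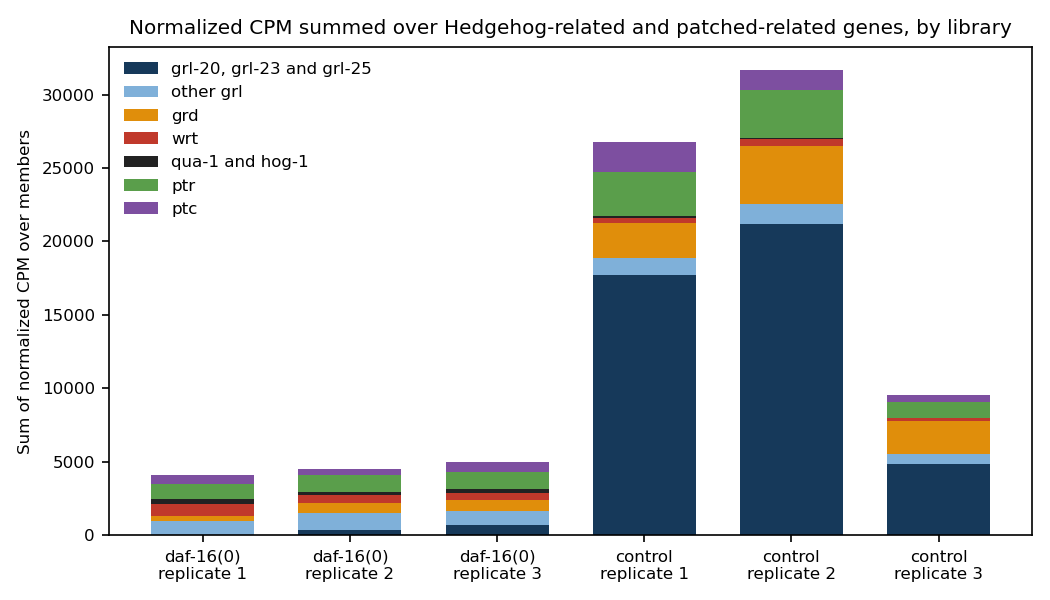
Summed normalized CPM of the members in each of the 6 libraries, as stacked bars on a linear axis with colours for the gene families. *grl-20*, *grl-23* and *grl-25* together form a segment apart from the other *grl* genes, and *qua-1* and *hog-1* share another. The *grl* and *grd* sums were lower and the *wrt* sums higher in every *daf-16(0)* library, while *ptr* and *ptc* overlapped through control replicate 3.

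Of the 85 members, 74 passed the filter on low counts in the 4 libraries. Of these 74, 9 were called higher in *daf-16(0)* (12.2%), where 5.37% of all 13536 protein-coding genes tested were called higher. A further 23 were called lower (31.1%), where the share over all genes was 9.59%. The remaining 42 tested members were not called. The median log2 fold change was -0.93 over the tested members and 0.11 over all genes tested. With all 6 libraries, 69 members were tested, 9 were called higher (13.04%, with 5.08% over all 13633 genes) and 12 lower (17.4%, with 7.39% over all genes). Of the calls, 8 of the higher and 11 of the lower ones were made in both comparisons. In the 6 libraries, every *daf-16(0)* value lay above every control value in 15 of the 69 (21.7%), a share near the 21.8% of all genes tested, and below in 25 (36.2%), with 19.2% over all genes. The 11 untested members were *ptc-2*, 3 *grd* and 7 *grl* genes, none of which reached more than 35 counts in any library, and *grd-11*, *grl-13* and *grl-31* had no count in any. Secreted members were called in both directions, 9 higher and 17 lower of 49 tested. All 6 calls among the 25 tested membrane proteins were lower.

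**Figure D2:**
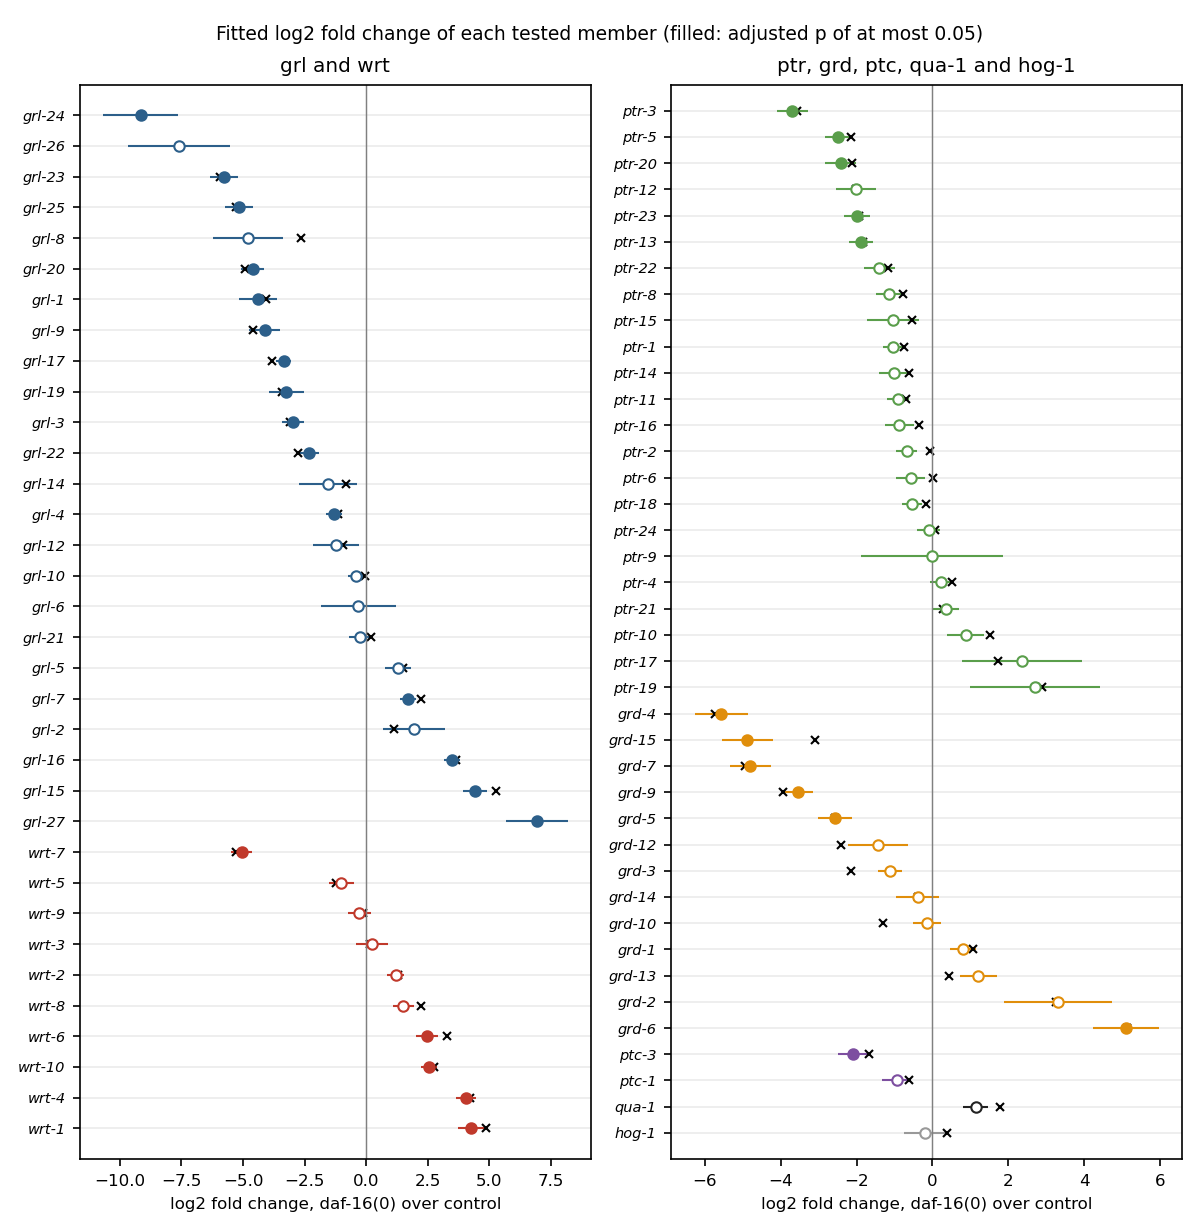
Log2 fold change of *daf-16(0)* over control for the tested members by family, with standard error bars from the 4 libraries (filled points called at an adjusted p of at most 0.05, open points not called) and black crosses for all 6 libraries. The *grl* and *grd* genes spread to both sides, 4 of 5 called *wrt* genes lay above 0, and all called *ptr* and *ptc* genes lay below 0.

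The ground-like genes changed in both directions, and the most abundant of them fell. Of 24 tested, 11 were called lower (45.8%, with 9.59% over all genes) and 4 higher (16.7%, with 5.37% over all genes). The other 9 were not called, and the median log2 fold change was -1.93. With all 6 libraries 4 were called lower and 3 higher. *grl-25* (WBGene00001734, chromosome III, 8962295 to 8965638, forward strand of WBcel235) and *grl-23* (WBGene00001732, chromosome V, 12575308 to 12576895, reverse strand) ranked 9 and 10 among all protein-coding genes by mean CPM in the 3 control libraries, and 1010 and 1753 in *daf-16(0)*. *grl-23* measured 3.09, 92.5 and 197 CPM in *daf-16(0)* and 7055, 8701 and 1811 CPM in control. All *daf-16(0)* values were far below all controls, *daf-16(0)* replicate 1 was the lowest and control replicate 3 the lowest control. The log2 fold change of *grl-23* was -5.77 ± 0.56 (adjusted p = 0.00552) in the 4 libraries and -5.93 (adjusted p = 0.0348) in all 6. *grl-25* measured 3.69, 149 and 342 CPM in *daf-16(0)* and 8523, 8929 and 1755 CPM in control, again with no overlap and with the same libraries at the low end of each group. Its log2 fold change was -5.16 ± 0.56 (adjusted p = 0.00651) in the 4 libraries, and -5.30 (adjusted p = 0.051) in all 6, where it just missed the threshold. *grl-25* shares 191 exon bases with the noncoding gene ZK638.1, which reached at most 600 counts in any library, as against 78685 for *grl-25*. *grl-20* (WBGene00001729, chromosome IV, 2126145 to 2128852, reverse strand), which ranked 37 among all protein-coding genes in control and 2149 in *daf-16(0)*, measured 1.78, 105 and 129 CPM in *daf-16(0)* and 2141, 3568 and 1263 CPM in control. It too fell in every *daf-16(0)* library below all controls, with a log2 fold change of -4.61 ± 0.45 (adjusted p = 0.00552) in the 4 libraries and -4.90 (adjusted p = 0.0462) in all 6.

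A group of less abundant *grl* genes fell with these 3. *grl-9* measured 0.198, 34.5 and 10.2 CPM in *daf-16(0)* and 377, 398 and 287 CPM in control, a log2 fold change of -4.12 ± 0.63 (adjusted p = 0.0125). *grl-17* measured 0.0658, 13.8 and 14.8 CPM against 134, 157 and 107 CPM, a log2 fold change of -3.35 ± 0.31 (adjusted p = 0.00552). Both were close to 0 in *daf-16(0)* replicate 1 alone, and neither was called in all 6 libraries (adjusted p = 0.0534 and 0.0712). *grl-1* measured 4.21, 1.75 and 9.01 CPM in *daf-16(0)* and 83.6, 147 and 16.02 CPM in control (log2 fold change -4.40 ± 0.77, adjusted p = 0.018), and *grl-3* 2.96, 6.68 and 4.16 against 34.0, 51.0 and 32.8 CPM (log2 fold change -2.98 ± 0.46, adjusted p = 0.0126). These both kept their call in all 6 libraries. *grl-24* (WBGene00001733, chromosome IV, 17475417 to 17475838, reverse strand) had no count in any *daf-16(0)* library and 58, 60 and 3 counts in control, which made it at least 26.6-fold lower in the 4 libraries against a floor of 3 counts per library (adjusted p = 0.0212). It was at the floor in control replicate 3, was not tested in the 6 libraries, and shares 28 exon bases with F11E6.9 on the same strand. *grl-4*, *grl-19* and *grl-22* were the other members called lower, with log2 fold changes of -1.32, -3.24 and -2.32, and none of them was called in all 6 libraries. For *grl-4* the groups overlapped there, since control replicate 3 (74.6 CPM) lay below *daf-16(0)* replicates 2 and 3.

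Among the *grl* genes that rose, *grl-16* was the most abundant (WBGene00001725, chromosome I, 572177 to 575120, reverse strand). *grl-16* measured 359, 573 and 525 CPM in *daf-16(0)* and 54.1, 44.5 and 16.9 CPM in control, a log2 fold change of 3.48 ± 0.33 (adjusted p = 0.00552) in the 4 libraries and 3.64 (adjusted p = 0.00678) in all 6. Every *daf-16(0)* library was above every control, and the gene moved from rank 4114 by mean CPM in control to rank 327 in *daf-16(0)*. *grl-15* (WBGene00001724, chromosome III, 12232632 to 12235711, reverse strand) measured 99.7, 77.4 and 58.5 CPM in *daf-16(0)* and 4.32, 2.04 and 0.0512 CPM in control, a log2 fold change of 4.43 ± 0.48 (adjusted p = 0.00656) in the 4 libraries and 5.27 (adjusted p = 0.022) in all 6. The groups did not overlap, and control replicate 3 was lowest. *grl-7* (WBGene00001716, chromosome V, 11344831 to 11347012, reverse strand), whose protein accumulates in the apical matrix and is cleared with the help of PTR-18, measured 189.6, 138 and 97.1 CPM in *daf-16(0)* and 37.9, 34.0 and 17.8 CPM in control. *grl-7* thus rose without overlap, with a log2 fold change of 1.71 ± 0.32 (adjusted p = 0.0214) in the 4 libraries and 2.23 (adjusted p = 0.0164) in all 6. *ptr-18* itself, at 85.1, 78.0 and 71.8 CPM against 110.4, 107 and 41.6 CPM, was not called (log2 fold change -0.54 ± 0.27, adjusted p = 0.205). *grl-27* (WBGene00001736, chromosome V, 3575055 to 3575874, reverse strand) had 0, 81 and 126 counts in *daf-16(0)* and 1, 0 and 0 in control, and was called higher in the 4 libraries (adjusted p = 0.0198). Since *daf-16(0)* replicate 1 had none, this call stands on the other libraries of its group, and the gene was not tested in all 6. *grl-21*, which acts with the nuclear receptor gene *nhr-25* in fat storage, measured 90.0, 55.0 and 45.6 CPM in *daf-16(0)* and 36.9, 83.9 and 44.2 CPM in control. The groups overlapped fully, and the log2 fold change was -0.27 ± 0.44 (adjusted p = 0.689) in the 4 libraries and, with the opposite sign, 0.19 (adjusted p = 0.786) in all 6. *grl-2* and *grl-18*, known from duct, pore or glial cells, were at most 2.77 CPM in any library.

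**Figure D3:**
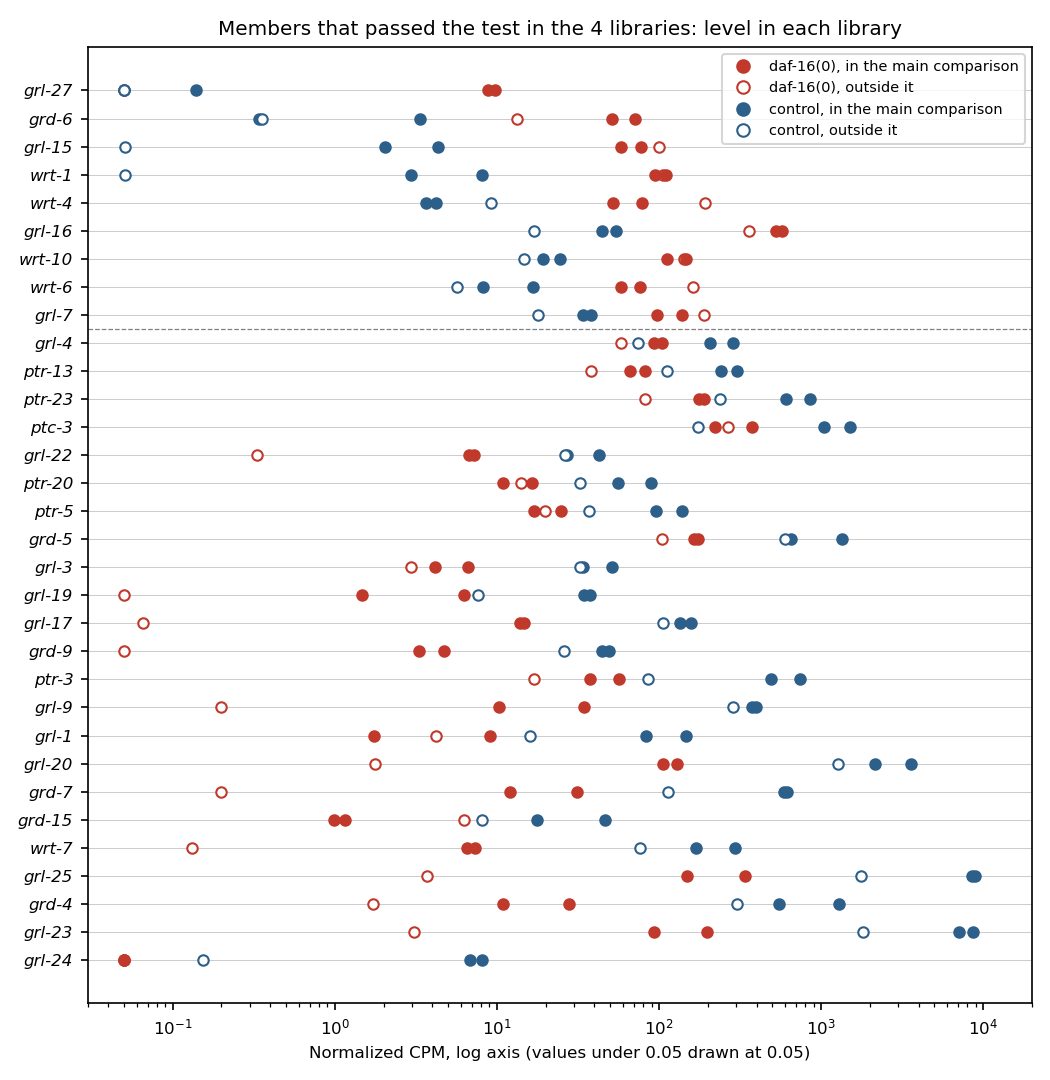
Normalized CPM (log axis) of the 32 members called in the 4 libraries, in each *daf-16(0)* (red) and control (blue) library, with open points for *daf-16(0)* replicate 1 and control replicate 3, which the main comparison did not use. Among the 23 members called lower, control replicate 3 was the lowest control in all 23 and *daf-16(0)* replicate 1 the lowest of its group in 18.

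Most of the called groundhog genes fell, and 1 rose. Of 13 tested *grd* genes, 5 were called lower (38.5%, with 9.59% over all genes) and 1 higher (7.69%, with 5.37% over all genes). The other 7 were not called, and the median log2 fold change was -1.12. *grd-4* (WBGene00001693, chromosome X, 8501245 to 8502289, forward strand) measured 1.71, 10.8 and 27.8 CPM in *daf-16(0)* and 549, 1284 and 303 CPM in control, with a log2 fold change of -5.57 ± 0.71 (adjusted p = 0.00814) in the 4 libraries and -5.74 (adjusted p = 0.0171) in all 6. *grd-5* (WBGene00001694, chromosome V, 8619032 to 8619869, forward strand) measured 105, 164 and 173 CPM in *daf-16(0)* and 651, 1350.1 and 599.9 CPM in control, a log2 fold change of -2.57 ± 0.45 (adjusted p = 0.0172) in the 4 libraries and -2.57 (adjusted p = 0.0137) in all 6. For both genes all *daf-16(0)* values were below all controls, and these were the *grd* genes called lower in both comparisons. *grd-7* (WBGene00001696, chromosome X, 7267989 to 7269479, reverse strand) measured 0.198, 12.05 and 31.3 CPM in *daf-16(0)* and 592, 617 and 113 CPM in control, a log2 fold change of -4.80 ± 0.55 (adjusted p = 0.00678). *grd-9* (WBGene00001698, chromosome V, 5895388 to 5898602, forward strand) measured 0, 4.71 and 3.31 CPM against 44.5, 49.3 and 25.8 CPM, a log2 fold change of -3.55 ± 0.40 (adjusted p = 0.0067). Neither pair of groups overlapped, but in all 6 libraries both missed the threshold, with adjusted p = 0.0554 and 0.0645. *grd-15* (WBGene00001704, chromosome I, 13564567 to 13566362, forward strand) measured 6.25, 0.986 and 1.15 CPM in *daf-16(0)* and 17.6, 46.3 and 8.09 CPM in control, a log2 fold change of -4.88 ± 0.67 (adjusted p = 0.0102) in the 4 libraries and -3.10 (adjusted p = 0.0701) in all 6. *daf-16(0)* replicate 1 came close to control replicate 3, and 112 of its exon bases lie opposite *cyn-15*, so that reads there cannot be told apart in libraries that do not mark strand. *grd-3* (WBGene00001692, chromosome IV, 3439655 to 3440453, forward strand) measured 46.0, 122 and 159 CPM in *daf-16(0)* and 337, 274 and 833 CPM in control. It was lower in every *daf-16(0)* library but was not called, with a log2 fold change of -1.12 ± 0.31 (adjusted p = 0.0591) in the 4 libraries and -2.16 (adjusted p = 0.0512) in all 6. DESeq2 called *grd-3* lower in the 4 libraries (adjusted p = 0.00758) and in all 6 (adjusted p = 0.00221). In the 4 libraries limma (adjusted p = 0.0383) and edgeR without the count filter (adjusted p = 0.031) did so too. *grd-3* was highest in control replicate 3, where most called members were lowest.

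*grd-6* (WBGene00001695, chromosome V, 9221866 to 9224354, forward strand) was the *grd* gene that rose. *grd-6* measured 13.4, 71.3 and 51.0 CPM in *daf-16(0)* and 3.35, 0.340 and 0.358 CPM in control, with a log2 fold change of 5.09 ± 0.87 (adjusted p = 0.0168) in the 4 libraries and 5.14 (adjusted p = 0.0243) in all 6. The control libraries were near or at the floor of 3 counts except replicate 1, and every *daf-16(0)* library was above them. *grd-1*, *grd-2*, *grd-13*, *grd-10*, *grd-12* and *grd-14* were not called, with log2 fold changes from -1.44 for *grd-12* to 3.32 for *grd-2*. *grd-2* measured 39.8, 11.5 and 10.3 CPM against 2.23, 0 and 3.94 CPM, without overlap, at an adjusted p of 0.15.

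Most of the called warthog genes rose. Of 10 tested, 4 were called higher (40%, with 5.37% over all genes) and 1 lower (10%, near the 9.59% over all genes) in the 4 libraries. The other 5 were not called, and the median log2 fold change was 1.35. In all 6 libraries 5 were higher and 1 lower, and DESeq2 called 6 higher and 1 lower in each comparison. *wrt-1* (WBGene00006947, chromosome II, 7531145 to 7533246, forward strand) measured 106, 95.0 and 111 CPM in *daf-16(0)* and 8.09, 2.95 and 0.0512 CPM in control, a log2 fold change of 4.24 ± 0.53 (adjusted p = 0.0079) in the 4 libraries and 4.85 (adjusted p = 0.0351) in all 6. *wrt-4* (WBGene00006950, chromosome X, 15752258 to 15757269, reverse strand) measured 192, 78.4 and 52.0 CPM against 4.18, 3.63 and 9.16 CPM, a log2 fold change of 4.06 ± 0.40 (adjusted p = 0.00558) and 4.21 (adjusted p = 0.00915). Neither overlapped between the groups; *wrt-1* was about equal in the 3 *daf-16(0)* libraries, while *wrt-4* was highest in replicate 1. *wrt-10* (WBGene00006956, chromosome II, 7533300 to 7534563, reverse strand) measured 142, 146 and 112 CPM in *daf-16(0)* and 24.5, 19.3 and 14.8 CPM in control, a log2 fold change of 2.56 ± 0.33 (adjusted p = 0.00835) in the 4 libraries and 2.75 (adjusted p = 0.00428) in all 6. *wrt-6* (WBGene00006952, chromosome X, 3480251 to 3483649, forward strand) measured 161, 76.9 and 58.7 CPM against 16.6, 8.17 and 5.68 CPM, a log2 fold change of 2.46 ± 0.44 (adjusted p = 0.0188) and 3.27 (adjusted p = 0.0138). All 4 genes were thus above every control in every *daf-16(0)* library, including the libraries that the main comparison left out. *wrt-2* (WBGene00006948, chromosome X, 3092395 to 3094448, reverse strand) measured 92.2, 95.3 and 74.4 CPM in *daf-16(0)* and 28.3, 45.7 and 31.0 CPM in control. It did not overlap either, was not called in the 4 libraries (log2 fold change 1.19 ± 0.36, adjusted p = 0.071) and was called in all 6 (1.3004, adjusted p = 0.0325). *wrt-2* shares 43 exon bases with *pccb-1*, on the opposite strand, which reached 6296 counts in a library, as against 1400 for *wrt-2*. *wrt-8* was also higher in each *daf-16(0)* library, at 39.9, 28.1 and 21.1 CPM against 7.81, 9.53 and 1.79 CPM, but was not called (log2 fold change 1.502 ± 0.43, adjusted p = 0.0628).

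*wrt-7* (WBGene00006953, chromosome V, 15334782 to 15337505, reverse strand) was the *wrt* gene that fell. *wrt-7* measured 0.132, 7.34 and 6.54 CPM in *daf-16(0)* and 168, 293 and 76.9 CPM in control, a log2 fold change of -5.06 ± 0.43 (adjusted p = 0.00506) in the 4 libraries and -5.29 (adjusted p = 0.0269) in all 6. *daf-16(0)* replicate 1 was below the level of 3 counts and control replicate 3 was the lowest control, and these were also the lowest libraries of their groups for *grl-23* and *grl-25*. *wrt-3*, *wrt-5* and *wrt-9* were not called, with log2 fold changes of 0.23, -1.02 and -0.27.

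Neither *qua-1* nor *hog-1* was called by edgeR in the 4 or in all 6 libraries. *qua-1* (WBGene00004264, chromosome II, 8198803 to 8204001, forward strand), which is needed for molting, measured 354, 185 and 255 CPM in *daf-16(0)* and 115.01, 83.6 and 27.5 CPM in control. Its groups did not overlap and it ranked 620 among protein-coding genes in *daf-16(0)* and 2406 in control, but the log2 fold change of 1.15 ± 0.33 (adjusted p = 0.0642) in the 4 libraries and 1.79 (adjusted p = 0.0635) in all 6 missed the threshold. DESeq2 called *qua-1* higher in the 4 libraries (adjusted p = 0.0142) and in all 6 (adjusted p = 0.0068), and in the 4 libraries limma (adjusted p = 0.0439) and edgeR without the count filter (adjusted p = 0.027) did so too. *hog-1* (WBGene00001984, chromosome X, 5851954 to 5854260, reverse strand), which carries a Hog module, measured 11.7, 9.20 and 6.77 CPM in *daf-16(0)* and 9.34, 9.08 and 2.51 CPM in control. The groups of *hog-1* overlapped, with a log2 fold change of -0.21 ± 0.56 (adjusted p = 0.815) in the 4 libraries and 0.39 (adjusted p = 0.724) in all 6.

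Of the patched genes, *ptc-3* fell in the 4 libraries and *ptc-1* was not called. *ptc-3* (WBGene00004210, chromosome II, 2845384 to 2852593, reverse strand), an essential patched gene of the epidermis, measured 268, 221 and 376 CPM in *daf-16(0)* and 1505, 1035 and 173 CPM in control. The 4 libraries gave a lower level in *daf-16(0)* (log2 fold change -2.09 ± 0.41, adjusted p = 0.0241), but control replicate 3 lay below all *daf-16(0)* libraries, so that the groups overlapped and all 6 libraries gave no call (-1.67, adjusted p = 0.15). *ptc-1* (WBGene00004208, chromosome II, 7893229 to 7900510, forward strand), which acts in germ line cytokinesis, measured 321, 178 and 249.9 CPM against 525, 299.9 and 299.5 CPM. It was not called in either comparison (log2 fold change -0.95 ± 0.39, adjusted p = 0.136 and -0.61, adjusted p = 0.306), and its groups overlapped. *ptc-2*, a near copy of *ptc-1*, had at most 3 counts in any library. Estimated counts of *ptc-1* and *ptc-2* were not whole numbers, as RSEM gives where reads are shared between genes, so the level of *ptc-2* is uncertain.

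Of the 23 patched-related genes tested, 5 were called lower (21.7%, with 9.59% over all genes), none higher and 18 not called. Their median log2 fold change was -0.91. In all 6 libraries 5 were again called lower and none higher. At an unadjusted p under 0.05 none was higher in the 4 libraries and 1 in all 6, and DESeq2 called none higher in either and 9 and 6 lower. RNAi of many *ptr* genes is known to slow growth or disturb molting. *ptr-3* (WBGene00004218, chromosome II, 362495 to 367555, reverse strand) measured 16.99, 37.7 and 56.9 CPM in *daf-16(0)* and 491, 737 and 85.9 CPM in control, a log2 fold change of -3.70 ± 0.41 (adjusted p = 0.00656) in the 4 libraries and -3.58 (adjusted p = 0.0297) in all 6. It fell furthest of the called *ptr* genes, and all *daf-16(0)* libraries were below control replicate 3. *ptr-5* (WBGene00004220, chromosome X, 17318584 to 17326603, forward strand) measured 19.8, 16.98 and 24.9 CPM in *daf-16(0)* and 139, 95.6 and 36.8 CPM in control, a log2 fold change of -2.49 ± 0.36 (adjusted p = 0.0112) in the 4 libraries and -2.16 (adjusted p = 0.0301) in all 6. *ptr-20* (WBGene00004234, chromosome II, 15158180 to 15163614, forward strand) measured 14.02, 16.4 and 10.9 CPM against 55.6, 89.5 and 32.5 CPM, a log2 fold change of -2.42 ± 0.41 (adjusted p = 0.0162) and -2.12 (adjusted p = 0.0216). Neither gene overlapped between the groups. *ptr-23* (WBGene00004237, chromosome I, 14909240 to 14913083, forward strand), in which mutations alter the osmotic response, measured 81.6, 177 and 189 CPM in *daf-16(0)* and 604, 856 and 239 CPM in control. *ptr-23* fell in the 4 libraries (log2 fold change -1.998 ± 0.34, adjusted p = 0.0163) and was at -1.94 (adjusted p = 0.0534) in all 6, without overlap. *ptr-13* was the other gene called lower in both comparisons (log2 fold change -1.88, adjusted p = 0.0155 and -1.83, adjusted p = 0.0401), and *ptr-12* was called lower in all 6 libraries and not in the 4 (-2.02, adjusted p = 0.042 and -2.02, adjusted p = 0.0519).

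*ptr-4* (WBGene00004219, chromosome X, 6060754 to 6065986, reverse strand), which shapes the apical matrix at the molt, measured 138, 171 and 139 CPM in *daf-16(0)* and 139.7, 124 and 46.4 CPM in control. *ptr-4* overlapped between the groups, with a log2 fold change of 0.23 ± 0.29 (adjusted p = 0.595). *ptr-1*, *ptr-8* and *ptr-11* were lower in the 4 libraries with log2 fold changes of -1.03, -1.15 and -0.91 and adjusted p of 0.0552, 0.0648 and 0.0846, which missed the threshold. For all 3, control replicate 3 was below every *daf-16(0)* library. *ptr-10*, a glial gene, measured 33.4, 18.1 and 24.2 CPM against 15.3, 7.72 and 3.17 CPM, higher in each *daf-16(0)* library and not called (log2 fold change 0.88 ± 0.49, adjusted p = 0.245). *ptr-9*, *ptr-17* and *ptr-19* reached at most 7.39 CPM in any library.

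Levels of different members were compared per length, as CPM per kilobase of exon. In control, *grl-23* had the highest mean at 4399 CPM per kb, followed by *grl-20* at 3128, *grl-25* at 2202, *grd-5* at 1655, *grd-4* at 929 and *grd-3* at 697. In *daf-16(0)* the order was *grl-16* at 289 CPM per kb, *grd-5* at 281, *grd-3* at 158, *grd-14* at 149, *grl-7* at 119.3 and *wrt-10* at 118. The control libraries ranged from 1360.3 to 6537 CPM per kb for *grl-23*, from 1699.6 to 4803 for *grl-20* and from 604 to 3072 for *grl-25*. These ranges overlapped. Within libraries, *grl-20* was above *grl-23* in control replicate 3 and below *grl-25* in control replicate 1 (2882 against 2932). *grl-23* was above *grl-25* in every control, at 5301, 6537 and 1360.3 against 2932, 3072 and 604. In *daf-16(0)* the ranges of *grl-16*, at 214 to 341, and *grd-5*, at 199.9 to 331 CPM per kb, overlapped as well. *grl-16* was at place 39 and *wrt-10* at place 46 of the members in control. *grd-5* and *grd-3* were the members among the top 6 of both groups.

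**Figure D4:**
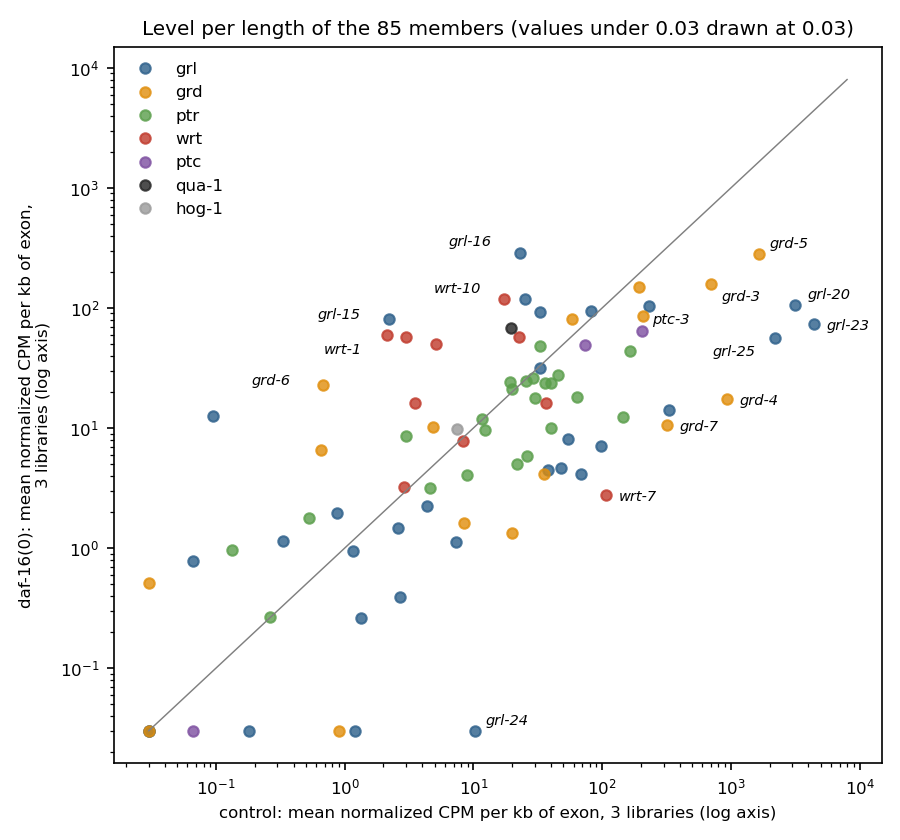
Mean CPM per kilobase of exon of each member in control (x axis) and in *daf-16(0)* (y axis), both on log axes, over 3 libraries each, with the line of equal levels. *grl-23*, *grl-20* and *grl-25* lay at the right end far below the line, and *grl-16* lay at the top above it.

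Neighbouring members changed together in some cases and not in others. Members lie on all 6 chromosomes, with 32 on V, 13 on X, 13 on IV, 12 on II, 9 on I and 6 on III, and 9 pairs of members lay within 10000 bases of each other. *wrt-1* and *wrt-10*, on opposite strands of chromosome II with 53 bases between them, both rose. *wrt-7* and *wrt-8*, both on the reverse strand of chromosome V with 4550 bases between them, were apart, as *wrt-7* fell and *wrt-8* had a log2 fold change of 1.502 (adjusted p = 0.0628). On X, *grd-4* lies 207 bases from *grd-14* on the same strand. *grd-4* fell, whereas *grd-14* measured 42.7, 124 and 102 CPM in *daf-16(0)* and 65.4, 229 and 51.9 CPM in control and was not called (log2 fold change -0.39 ± 0.57, adjusted p = 0.655). *grd-13*, *grd-3* and *grd-10* follow each other on chromosome IV with gaps of 151 and 601 bases, and had log2 fold changes of 1.21, -1.12 and -0.14, none of them called. All 3 were highest of the controls in control replicate 3. *grl-9* and *grl-8*, 136 bases apart on V, had log2 fold changes of -4.12 (adjusted p = 0.0125) and -4.81 (adjusted p = 0.0684). *grl-28*, *grl-29*, *grl-30* and *grl-31*, which adjoin on V, were all untested.

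**Figure D5:**
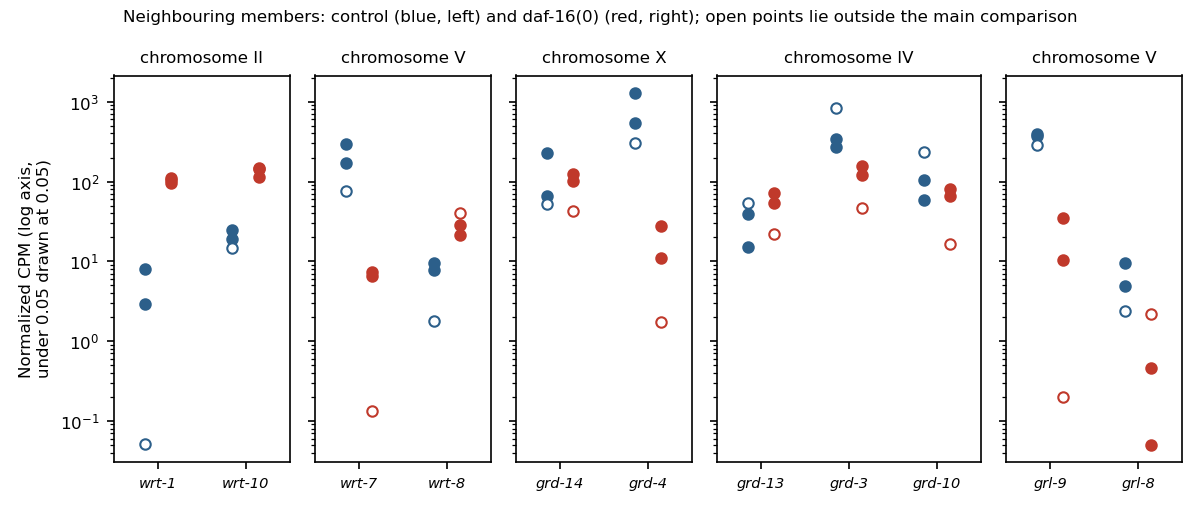
Normalized CPM (log axis) of 5 sets of neighbouring members in each library, control at left in blue and *daf-16(0)* at right in red. Both genes of the *wrt-1* and *wrt-10* set were higher in *daf-16(0)*, whereas *grd-4* was lower beside an overlapping *grd-14*.

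Beyond the members, 11 genes that act with Patched-like proteins or sterols were followed: *che-14* (a relative of Dispatched), *ptd-2*, *daf-6* (a patched-related gene of the amphid channel), *ncr-1* and *ncr-2* (relatives of NPC1), *scp-1*, *hmgr-1*, *hhat-1* and *hhat-2* (acyltransferase relatives), *tra-1* (the relative of Gli, used in sex determination) and *tra-2*. Of these 11, 1 was called higher (9.09%) and none lower in both comparisons. Over all genes, 5.37% were called higher in the 4 libraries and 5.08% in all 6. The median log2 fold change of the 11 was -0.23 in the 4 libraries and, with the opposite sign, 0.10 in all 6. At an unadjusted p under 0.05 none was lower in either comparison, and DESeq2 called none lower. *hhat-1* measured 59.7, 51.5 and 42.8 CPM in *daf-16(0)* and 15.3, 18.7 and 16.4 CPM in control, a log2 fold change of 1.47 ± 0.34 (adjusted p = 0.0366) in the 4 libraries and 1.59 (adjusted p = 0.0164) in all 6. It was higher in every *daf-16(0)* library than in any control.

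Of 18 genes of molting and the apical matrix, 5 were called higher (27.8%, with 5.37% over all genes) and none lower in the 4 libraries. The other 13 were not called, and the median log2 fold change was 1.07. At an unadjusted p under 0.05, 9 were higher and 1, *lrp-1*, was lower, and DESeq2 called 6 higher and 1 lower. The called genes were *dpy-7*, a cuticle collagen, *mlt-10*, *sym-1*, *noah-1* and *noah-2*, with log2 fold changes of 3.86 (adjusted p = 0.00552), 3.77 (adjusted p = 0.0471), 2.32 (adjusted p = 0.0288), 1.98 (adjusted p = 0.0138) and 1.56 (adjusted p = 0.0238). In all 6 libraries *nhr-23*, a nuclear receptor gene that drives the molting cycle, was called as well (1.42, adjusted p = 0.0446), and none was lower. DESeq2 called 10 higher and none lower in all 6 libraries. The sums of the list overlapped between the groups, at 4322, 3195 and 5077 CPM in *daf-16(0)* and 4298, 2165 and 1399 in control. *lrp-1*, the largest part of the sum in every control library, measured 388, 271 and 701 CPM in *daf-16(0)* and 2247, 875 and 448 in control.

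The calls of lower members rested in part on which libraries were used. Over the 23 members called lower, the median level was 3.09, 16.4 and 24.9 CPM in *daf-16(0)* and 207, 293 and 85.9 CPM in control. In all 6 libraries 22 of these 23 had the same sign, *grl-24* being untested, and 21 did not overlap, the exceptions being *grl-4* and *ptc-3*. Yet 11 of the 23 were called there. Over the 9 members called higher, the medians were 142, 78.4 and 58.7 CPM in *daf-16(0)* and 8.09, 3.63 and 5.68 CPM in control, and 8 of the 9 did not overlap, the exception being *grl-27*. Both sets were picked by their calls in 4 of these 6 libraries, so their sign and order in all 6 were largely set by that choice. No share over all called genes was computed beside these counts. Without control replicate 3, the remaining 5 libraries gave 11 members higher and 25 lower, whereas without *daf-16(0)* replicate 1 they gave 7 higher and 13 lower. Within the 4 libraries, *ptc-3*, *grd-5*, *ptr-23*, *ptr-13*, *grl-4*, *grl-22* and *grl-27* lost their call when either *daf-16(0)* library was left out, with adjusted p between 0.0571 and 0.179. Without *daf-16(0)* replicate 2, *grl-7*, *ptr-5* and *wrt-6* lost it as well (adjusted p = 0.103, 0.0563 and 0.0586), and without *daf-16(0)* replicate 3 *ptr-20* did (adjusted p = 0.0668). Without control replicate 2, *grl-4* and *grl-22* lost it (adjusted p = 0.0955 and 0.0543), and no call was lost without control replicate 1. Of the 23 members called lower 13 share exon bases with another gene, as do 31 of all 85 members, and 1 of the 9 called higher does. The stretches shared with another protein-coding gene by *grd-7*, *grl-1*, *grl-15* and *grl-20* were 24, 22, 27 and 10 bases.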

How the data were processed

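Whole dauer larvae were sequenced as paired-end reads of 100 bp from poly(A)-selected libraries made with a kit that does not mark strand. After Trimmomatic and STAR (build WBcel235), RSEM gave the expected counts per gene that the authors deposited without normalization. Signal values deposited for 4 libraries, which are counts over 1 size factor per library, served here for the limma alternative alone. Their log2 fold changes, p-values and adjusted p-values were not used.

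Expected counts of protein-coding genes were rounded to whole numbers (1.57 to 2.78% of values per library were not whole). Protein-coding genes held 89.1% of the counts in control replicate 1 and at least 97.1% elsewhere. The quasi-likelihood test of edgeR 4.0.16 (R 4.3.3) was run on 4 libraries and on 6 after filterByExpr and TMM scaling, with p-values adjusted by Benjamini-Hochberg over all protein-coding genes tested. Alternatives used DESeq2 1.42.0 and limma 3.58.1 (pseudocount of 1), other filters and scaling, a replicate block, and leaving out each library. The fit was tested on simulated data. The biological coefficient of variation was 0.463 and 0.636. Summaries used Python 3.11 and pandas 2.3.3. Exon lengths and overlaps came from Ensembl release 115 of the same build, in which 17 of the 85 members have the same span as in the deposited files, so levels per kilobase are approximate. Coordinates are those of the deposited files.

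Members, the lists of pathway, molting, stage and cell type genes, the tests and the alternatives were chosen with earlier results of these data known. Named in full were, per family, up to 4 members called in each direction without overlap in the 4 libraries, the most abundant member and the most abundant uncalled member per kilobase, and *ptc-1*, *ptc-3*, *qua-1* and *hog-1*; other members named were chosen after their values were seen. Replicates of a group differed by more than sampling noise. Same-numbered libraries did not deviate together (correlations of -0.052, -0.011 and -0.23 over 13633 genes).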

Additional observations from a re-analysis of the deposited data

How the results depend on the processing

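Among the tested members, 9 were called higher and 23 lower in *daf-16(0)*. All 6 libraries gave 9 and 12, DESeq2 gave 12 and 30 on 4 libraries and 15 and 25 on 6, RLE normalization 9 and 24, no filter on low counts 15 and 29, a mean of at least 10 counts 9 and 23, limma 10 and 28, genes of all biotypes 9 and 23, and a log2 threshold of 2 gave 8 and 20. DESeq2 tested 78 members in each comparison, and limma and the fit without a filter 81, as against 74 in the main fit. Shares over all genes were computed only for edgeR on the 4 and on all 6 libraries. Counts from the other alternatives therefore have no background beside them. With a replicate block, 6 were called higher and 1 lower. The labels do not say whether libraries of the same replicate number were handled together. Leaving out 1 library gave 4 to 13 higher and 1 to 25 lower over both comparisons, with 6 to 13 and 16 to 25 within the 4 libraries. Of the 6 libraries, leaving out *daf-16(0)* replicate 2 gave 4 higher and 1 lower, *daf-16(0)* replicate 3 gave 6 and 3, control replicate 1 gave 8 and 3, control replicate 2 gave 5 and 3, and control replicate 3 gave 11 and 25. The cause was not tested.

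None of 24 called members named by the rule reversed under any alternative run. These 24 were called without overlap in the 4 libraries, and every alternative used all or some of those libraries. The lack of reversals was therefore largely set by how the members were chosen. DESeq2, RLE normalization, no filter, a mean of at least 10 counts, limma and all biotypes kept all 24 calls, all 6 libraries kept 16 and the replicate block 6. The uncalled *grl-21* and *hog-1* reversed. The log2 fold change of *grl-21* was 0.19 with 6 libraries, 0.21 with the replicate block and 0.18 with DESeq2 on 6, and that of *hog-1* was 0.39, 0.57 and 0.40. Leaving out 1 library gave -0.74 to 0.44 for *grl-21* and -0.43 to 0.030 for *hog-1* within the 4 libraries. From all 6, *grl-21* gave 0.31 and 0.38 when *daf-16(0)* replicate 2 or 3 was left out and 0.62 and 0.065 when control replicate 2 or 3 was, and *hog-1* gave 0.42 and 0.56 for the same *daf-16(0)* libraries and 0.67 and 0.61 for control replicate 1 or 2. Members at or under 3 counts were below what this depth resolves.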
